A study of Mus musculus with 12 samples.

Results

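Splicing of nuclear pre-mRNA is carried out by the spliceosome, a machine that is assembled anew on each intron from small nuclear ribonucleoprotein particles (snRNPs) and many further proteins. The U1 snRNP recognises the start of an intron, U2AF and the U2 snRNP recognise its branch point and end, and the U4/U6 and U5 particles then join and form the catalytic core. Each snRNP except U6 is built around a ring of Sm proteins, and U6 carries a related ring of Lsm proteins. SR proteins and hnRNP proteins bind the pre-mRNA itself and influence which exons are kept.

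The transcripts described here are those of the splicing factor families in mouse colonic organoids, cultured bodies of large bowel epithelium. Members were the protein-coding genes of the GENCODE vM21 annotation whose symbols start with Srsf, Snrp, Sf3a, Sf3b, Prpf, Hnrnp, U2af or Lsm, and whose normalized count reached 10 in at least 3 of the 12 libraries. This gave 80 members of 14856 genes tested and 48795 genes in the table. Of 82 coding genes with these symbols, 2 were left out by the minimum, Srsf12 and Lsmem1, the second of which shares only its first letters with the Lsm genes. The families counted 20 Hnrnp, 13 Prpf, 13 Lsm, 12 Snrp, 10 Srsf, 6 Sf3b, 3 Sf3a and 3 U2af genes, on 18 of the 21 mouse chromosomes. Genes whose symbols start with Snrnp do not meet the rule and are treated as other splicing genes.

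Total RNA had been sequenced from organoids of AhR-deficient (KO) and wild-type (WT) mice, both of C57BL/6 background. The gene lost in KO mice encodes the aryl hydrocarbon receptor (AhR), a ligand-dependent regulator of transcription that senses small molecules. Each genotype was sampled after 3 days of culture without Wnt-3A (differentiated condition) and in WENR medium, which supplies R-spondin-1, Noggin, EGF and Wnt-3A (stem cell condition), so that the groups were KO differentiated, WT differentiated, KO stem and WT stem, with 3 libraries each. The labels give no allele, age or sex. Nor do they tell whether each library had its own mouse or culture, so p-values measure the spread between these libraries only, which may be technical.

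Libraries held 25.1 M to 99.0 M recovered reads, and normalized totals lay between 52.6 M and 57.7 M. Ahr transcripts were not lower in the libraries labelled KO: they had 3824, 3356 and 3110 normalized counts in KO differentiated and 2127, 2236 and 2260 in WT differentiated organoids. The gene total does not show which exons are present. Cyp1b1, a known AhR target gene, had 571, 408 and 269 normalized counts in KO stem organoids, against 8502, 7479 and 8453 in WT stem organoids, and KO and WT are used below for libraries so labelled. All 7 epithelial markers were present in every library. WT stem library 1 stood apart, with a summed level of 22256 over 11 fibroblast and muscle markers, and KO stem library 3 had 637, while the other 10 libraries had 52.8 to 144. Vim (13196) and Col1a1 (4788) made up most of that sum in WT stem library 1, and the fibroblast markers Dcn and Lum were at 0 in both of these libraries. Sums over 7 immune, blood and endothelial markers were 3.05 to 31.8 in all libraries.

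Values are normalized counts, meaning read counts per gene divided by a library's size factor. Differences between groups are log2 changes of the normalized count plus 1, given with their standard error (SE). They came from a limma fit over all 12 libraries, and a gene was called where its p-value, adjusted by the Benjamini-Hochberg method over all 14856 genes, was under 0.05. Calls among all genes are given as a background share beside the members' counts.

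Splicing factor transcripts fell after Wnt-3A withdrawal in both genotypes. In KO organoids 55 of 80 members fell and 2 rose, where 33.6% of all genes tested fell and 34.1% rose. In WT organoids 66 members fell and 3 rose, where 35.9% of all genes fell and 36.3% rose. The median log2 change of the members was -0.39 in KO and -0.63 in WT organoids, against a median of 0.01 over all genes in each genotype. Falls of more than 2-fold were called for 8 members in KO and 18 in WT organoids, and were not counted over all genes. The lower quartile of the log2 change was -0.69 over members and -0.52 over all genes in KO organoids. In WT organoids it was -0.98 over members and -0.66 over all genes. Read as library values without a fit, 62 members were lower in all 3 differentiated than in all 3 stem libraries of KO organoids, as were 37.2% of all genes, and 4 were higher in all of them, as were 37.1%. In WT organoids 68 members were lower throughout, as were 37.3% of all genes, and 3 were higher throughout, as were 37.8%. All 55 members called down in KO were also called down in WT, which is 83.3% of the WT list. This overlap was not counted over all genes, so it is not shown to be particular to the members. The 2 rises in KO were 1 without KO stem library 1, KO differentiated library 2 or KO differentiated library 3, and 5 without WT stem library 1.

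Together the 80 members took 0.898% ± 0.022 of all normalized counts in KO differentiated and 1.2% ± 0.011 in KO stem organoids, and 0.787% ± 0.012 in WT differentiated and 1.31% ± 0.15 in WT stem organoids (SD, n = 3 each). The hnRNP genes made up most of this, with 0.471% ± 0.0045 in KO differentiated and 0.651% ± 0.014 in KO stem organoids. The Lsm2-8 ring, the smallest share of the groups described here, had 0.0116% ± 0.00033 in KO differentiated and 0.0228% ± 0.00061 in KO stem organoids. In these bulk libraries fewer cells of a type and less RNA per cell cannot be told apart.

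Markers of stem and cycling cells moved in the same direction, to unlike degrees. The 5 markers Lgr5, Ascl2, Smoc2, Mki67 and Top2a had summed levels of 6536 to 7371 in KO differentiated against 29086 to 41295 in KO stem libraries, and 3 of the 5 fell. The cycling genes Top2a and Mki67 made up most of the sums in stem libraries. Lgr5 had 3994, 3544 and 3825 normalized counts in KO differentiated against 4308, 5560 and 7264 in KO stem libraries. Smoc2 had 355, 285 and 187 against 467, 264 and 433, with overlap. In WT organoids the sums were 4126 to 4275 after differentiation against 38232 to 46376 in stem libraries, and all 5 fell. Their part in the decline of the splicing factors was not tested.

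**Figure D1:**
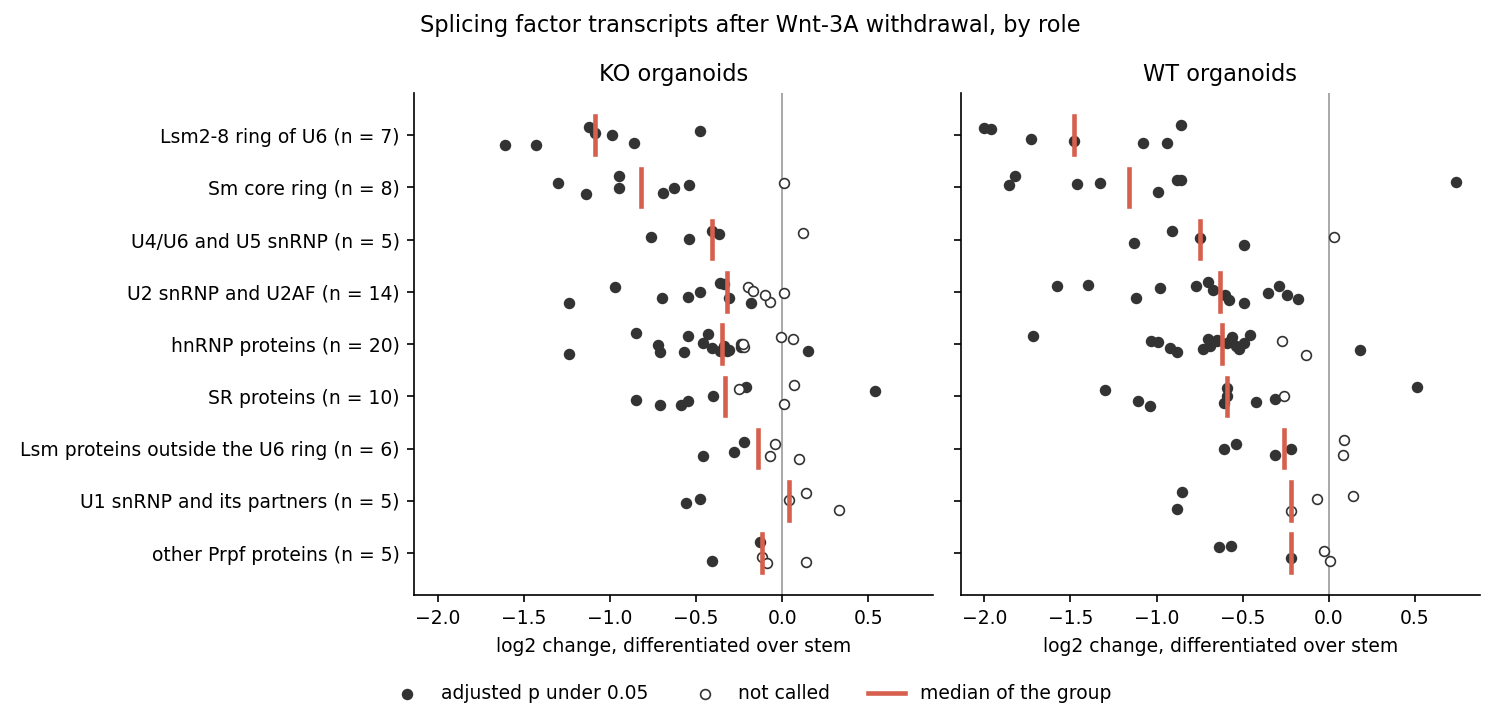
Log2 change from stem to differentiated condition (x axis, differentiated over stem) for the 80 members by role in the spliceosome (y axis), in KO and WT organoids. Filled points passed an adjusted p of 0.05, open points did not, and red lines are medians, which lie farthest to the left for the Lsm2-8 ring (-1.09 in KO, -1.48 in WT) and the Sm core ring (-0.82 in KO, -1.16 in WT).

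The rings that enclose the snRNAs had the largest declines. All 7 genes of the Lsm2-8 ring, which binds the 3′ end of U6 RNA, fell in both genotypes, with median log2 changes of -1.09 in KO and -1.48 in WT organoids. Of all genes tested, 33.6% fell in KO and 35.9% in WT organoids. Lsm5, a subunit of this ring, had 208, 214 and 210 normalized counts in KO differentiated libraries, against 547, 716 and 685 in KO stem libraries. In WT differentiated libraries Lsm5 had 173, 197 and 198, against 773, 739 and 759 in WT stem libraries. The lowest stem library therefore held more Lsm5 than any differentiated library by a wide margin, and the groups did not overlap in either genotype. The log2 change was -1.61 ± 0.11 (SE, limma adjusted p = 1.89e-07) in KO and -2.0 ± 0.11 (limma adjusted p = 2.13e-08) in WT organoids, the largest fall of any member in each genotype.

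Lsm3, its neighbour in rank, had 520, 556 and 524 normalized counts in KO differentiated and 1473, 1358 and 1492 in KO stem organoids. Its WT differentiated libraries held 461, 508 and 429, against 2103, 1669 and 1699 in WT stem libraries. Again every stem library lay above every differentiated library, with WT stem library 1 the highest. The log2 change was -1.43 ± 0.10 in KO and -1.96 ± 0.10 in WT organoids. The log2 changes of the other ring genes ran between -0.48 (Lsm6) and -1.12 (Lsm4) in KO and between -0.86 (Lsm7) and -1.73 (Lsm2) in WT organoids. Lsm4 was the most abundant gene of the ring per length, at a mean of 2908 normalized counts per kb of exon over the 12 libraries, and Lsm7 the least, at 165.

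Of the Sm core genes, whose products form the ring on the U1, U2, U4 and U5 snRNAs, 7 of 8 fell in both genotypes. The shares of all genes that fell were 33.6% in KO and 35.9% in WT organoids. Snrpf, which encodes SmF, had 1216, 1149 and 1111 normalized counts in KO differentiated libraries and 2804, 2798 and 2983 in KO stem libraries. It had 912, 915 and 856 in WT differentiated libraries and 3484, 3175 and 3066 in WT stem libraries. The replicates of each group lay close together and the conditions did not overlap. Its log2 change was -1.30 ± 0.07 in KO (limma adjusted p = 2.1e-08) and -1.86 ± 0.07 in WT organoids (limma adjusted p = 9.78e-10).

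Snrpg, which encodes SmG, had 1100, 1027 and 1000 normalized counts in KO differentiated and 2319, 2279 and 2281 in KO stem organoids, a log2 change of -1.14 ± 0.08. In WT differentiated organoids it had 830, 817 and 750, against 3236, 2672 and 2587 in WT stem organoids, a log2 change of -1.82 ± 0.08. Snrpd1, Snrpd2, Snrpd3, Snrpe and Snrpb, the genes of SmD1, SmD2, SmD3, SmE and SmB, fell by 0.54 to 0.95 in KO and by 0.86 to 1.46 in WT organoids on the log2 scale. Snrpb was the most abundant of them per length, at 4567 normalized counts per kb.

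Snrpn, the imprinted gene of SmN, a close relative of SmB best known from neurons, was the exception. It had 1396, 2037 and 2007 normalized counts in KO differentiated and 1809, 1871 and 1652 in KO stem organoids. In WT differentiated organoids it had 2724, 2573 and 2969, against 1570, 1672 and 1683 in WT stem organoids. The 3 WT differentiated libraries were thus the highest of all 12, whereas the KO conditions overlapped. Snrpn rose in WT (log2 change 0.74 ± 0.13, limma adjusted p = 0.000224) and changed by 0.01 ± 0.13 in KO organoids (limma adjusted p = 0.949). Per kb of exon, the ratio of Snrpn to Snrpb was 0.167, 0.267 and 0.253 in KO differentiated and 0.148, 0.169 and 0.143 in KO stem libraries, and 0.369, 0.362 and 0.454 in WT differentiated and 0.102, 0.143 and 0.148 in WT stem libraries. Snrpn (chr7:59982495-60140219, minus strand) shares its locus and strand with Snurf, which had 41.5 to 95.6 normalized counts, so reads could be divided between them in counting.

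**Figure D2:**
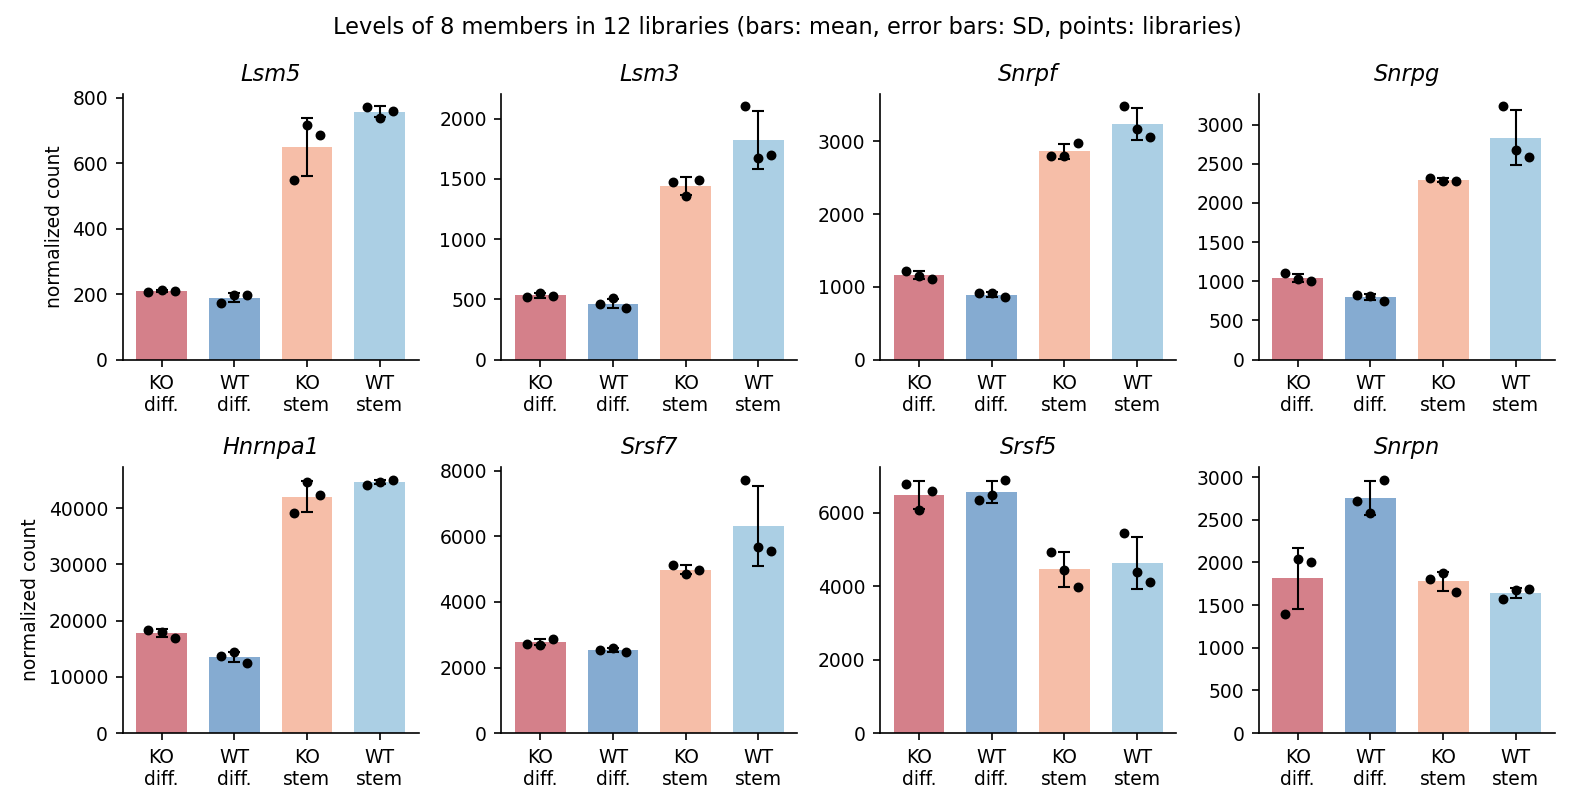
Normalized counts (y axis, from 0) of 8 members in KO differentiated, WT differentiated, KO stem and WT stem organoids, with bars for the mean, error bars for the SD and points for the 3 libraries of a group. Lsm5, Lsm3, Snrpf, Snrpg, Hnrnpa1 and Srsf7 are lower in every differentiated than in every stem library of the same genotype. Srsf5 is higher in every one, and Snrpn is so in WT organoids only.

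Components of the individual snRNPs declined to different degrees. Among the 14 genes of the U2 snRNP and U2AF, 9 fell in KO (median -0.32) and 14 in WT organoids (median -0.63), where 33.6% and 35.9% of all genes fell. The WT call of Sf3b4, a subunit of SF3b, was lost in 7 of 18 alternative settings, with adjusted p up to 0.173, among them without WT stem library 1 or any WT differentiated library, and that of U2af1l4 was lost with quantile normalization (adjusted p up to 0.0935). Snrpa1, which encodes the U2 protein A′, had 1140, 1262 and 1153 normalized counts in KO differentiated libraries against 2649, 2948 and 2814 in KO stem libraries. In WT differentiated libraries it had 1084, 1222 and 1122, against 3644, 3361 and 3236 in WT stem libraries. Its levels after differentiation were close in both genotypes, and its log2 change was -1.24 ± 0.07 in KO and -1.58 ± 0.07 in WT organoids. Sf3b5, a small subunit of the SF3b complex that contacts the branch point, changed by -0.97 ± 0.12 in KO and -1.40 ± 0.12 in WT organoids. Sf3b1, the large subunit of SF3b and a gene recurrently mutated in human cancers, changed far less, by -0.18 ± 0.04 in KO and -0.24 ± 0.04 in WT organoids, but passed the test in both. U2af2 and U2af1, the U2AF subunits that read the polypyrimidine tract and the AG at the intron end, fell as well. U2af2 changed by -0.70 ± 0.11 in KO and -1.12 ± 0.11 in WT organoids, and U2af1 by -0.36 ± 0.08 in KO and -0.70 ± 0.08 in WT organoids.

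For U1, the specific proteins Snrpa (U1-A) and Snrpc (U1-C) fell in both genotypes, by 0.48 and 0.56 in KO and by 0.88 and 0.85 in WT organoids on the log2 scale. They were 2 of the 5 genes of the U1 group, near the shares of all genes that fell (33.6% in KO and 35.9% in WT). Prpf39 and Prpf40b, relatives of yeast U1 proteins, were not called in either genotype. Prpf39 changed by 0.14 ± 0.12 in KO and -0.22 ± 0.12 in WT organoids, and Prpf40b by 0.33 ± 0.14 in KO and 0.14 ± 0.14 in WT organoids. Of the U4/U6 and U5 proteins, Prpf3, Prpf4, Prpf31 and Prpf8 fell in both genotypes. Prpf8, the U5 protein that holds the catalytic centre, had 21617, 20280 and 19032 normalized counts in KO differentiated and 26607, 22909 and 29605 in KO stem organoids, a log2 change of -0.37 ± 0.10. Its WT differentiated libraries held 21324, 20625 and 21156, against 34071, 27429 and 27594 in WT stem libraries, a log2 change of -0.49 ± 0.10. Both genotypes thus had like levels after differentiation. Prpf6, a tri-snRNP bridging protein, was not called (0.12 ± 0.05 in KO and 0.03 ± 0.05 in WT organoids).

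The 10 SR proteins, which bind exonic enhancers and recruit U1 and U2AF, split. In KO organoids 6 fell and 1 rose, where 33.6% of all genes fell and 34.1% rose. In WT organoids 8 fell and 1 rose, where 35.9% of all genes fell and 36.3% rose. The KO call of Srsf10 was lost without KO stem library 2 or 3 or KO differentiated library 2 or 3, with adjusted p up to 0.0614. Srsf7 had the largest fall, with 2732, 2698 and 2879 normalized counts in KO differentiated against 5131, 4845 and 4980 in KO stem libraries, and 2523, 2597 and 2462 in WT differentiated against 7725, 5671 and 5538 in WT stem libraries. No differentiated library reached a stem library, and WT stem library 1 exceeded all others. The log2 change of Srsf7 was -0.85 ± 0.10 in KO (limma adjusted p = 2.12e-05) and -1.30 ± 0.10 in WT organoids (limma adjusted p = 4.52e-07). Srsf3 and Srsf2 fell by 0.71 and 0.59 in KO and by 1.11 and 1.04 in WT organoids on the log2 scale. Srsf1, the founding SR protein also known as SF2/ASF, fell in WT (-0.61 ± 0.12) and was not called in KO organoids (-0.25 ± 0.12, limma adjusted p = 0.0805), but the difference between these changes was not called either (interaction 0.36 ± 0.17, limma adjusted p = 0.204).

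Srsf5 was the SR gene that rose. It had 6775, 6064 and 6590 normalized counts in KO differentiated and 4932, 4442 and 3982 in KO stem organoids. It had 6333, 6466 and 6894 in WT differentiated and 5436, 4374 and 4098 in WT stem organoids. Every differentiated library lay above every stem library, and the genotypes overlapped within each condition. The log2 change was 0.54 ± 0.10 in KO (limma adjusted p = 0.000693) and 0.51 ± 0.10 in WT organoids (limma adjusted p = 0.00094), with no call for a difference between them (interaction 0.03 ± 0.15, limma adjusted p = 0.909). The ratio of Srsf5 to Srsf7 per kb of exon was 2.00 to 2.21 in KO differentiated and 0.712 to 0.856 in KO stem libraries, and 2.22 to 2.49 in WT differentiated and 0.626 to 0.686 in WT stem libraries. Srsf6 was not called in either genotype (0.07 ± 0.14 in KO and -0.26 ± 0.14 in WT organoids).

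Of the 20 hnRNP genes, whose products coat nascent transcripts and often repress exons, 15 fell and 1 rose in KO, and 17 fell and 1 rose in WT organoids. Among all genes 33.6% fell and 34.1% rose in KO, and 35.9% fell and 36.3% rose in WT organoids. Hnrnpa1, which antagonises SR proteins at many exons, had 18374, 18036 and 16969 normalized counts in KO differentiated against 39197, 44626 and 42230 in KO stem libraries. In WT differentiated libraries it had 13655, 14341 and 12545, against 44150, 44675 and 44998 in WT stem libraries. Every stem library held more than any differentiated library, and the WT differentiated libraries were the lowest. The log2 change was -1.24 ± 0.07 in KO (limma adjusted p = 3.12e-08) and -1.72 ± 0.07 in WT organoids (limma adjusted p = 1.67e-09). Hnrnpa2b1, a related A/B type protein, changed by -0.85 ± 0.07 in KO and -1.03 ± 0.07 in WT organoids. Falls were smaller for Hnrnpc, which covers uridine tracts (-0.43 in KO and -0.59 in WT), Hnrnpu, a scaffold-binding protein (-0.32 in KO and -0.69 in WT), Hnrnpk, which binds cytidine tracts (-0.24 in KO and -0.46 in WT), and Hnrnpf, which binds guanosine tracts (-0.34 in KO and -0.52 in WT).

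The hnRNP gene called up was Hnrnpul2, with 15077, 16663 and 17129 normalized counts in KO differentiated and 14365, 14363 and 15346 in KO stem organoids, and 18723, 18558 and 18707 in WT differentiated and 16931, 16669 and 15806 in WT stem organoids. The KO conditions overlapped and the WT conditions did not. The change was small, 0.15 ± 0.06 in KO (limma adjusted p = 0.04) and 0.18 ± 0.06 in WT organoids (limma adjusted p = 0.0144). It was lost in 8 of 19 alternative settings in KO, with adjusted p up to 0.154, among them leaving out KO stem library 1 or 2 or KO differentiated library 2 or 3, and in 2 of 18 in WT (adjusted p up to 0.322), without WT stem library 3 and with quantile normalization.

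The Lsm proteins outside the U6 ring serve other steps: Lsm1 in cytoplasmic mRNA decay, Lsm10 and Lsm11 in the U7 particle that trims histone mRNA, and Lsm14a and Lsm14b in translational repression. Of these 6 genes, 3 fell in KO (Lsm1, Lsm11 and Lsm12) and 4 in WT organoids (these and Lsm14a), where 33.6% and 35.9% of all genes fell. The KO call of Lsm11 was lost in 5 of 19 alternative settings, with adjusted p up to 0.127, namely with quantile normalization and without KO stem library 1 or 3 or KO differentiated library 2 or 3. Lsm1, which replaces Lsm8 in the cytoplasmic ring, changed by -0.46 ± 0.10 in KO and -0.61 ± 0.10 in WT organoids, and Lsm8, which sets the nuclear ring apart, by -0.86 ± 0.06 in KO and -1.08 ± 0.06 in WT organoids. Of the 5 other Prpf genes, Prpf38b and Prpf18 fell in both genotypes and Prpf19, the ubiquitin ligase of the Prp19 complex, in WT organoids (-0.57 ± 0.10). The KO count, 2 of 5, is near the share of all genes. The call of Prpf18 in KO organoids was lost with the replicate number as a block within genotype and when KO stem library 2 or 3 or any KO differentiated library was left out.

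In neither genotype was a differentiation call made for 11 members, among them Hnrnph1, Hnrnpul1, Lsm10, Lsm14b, Prpf38a, Prpf4b, Prpf6 and Srsf6. Genes without a call in either genotype were not counted over all genes. Members differed in level by more than the changes described. Per kb of exon, Hnrnpf (11360 normalized counts), Hnrnpab (9750) and Hnrnpa1 (9351) were the highest over all 12 libraries, and Prpf40b (86.1) and Prpf39 (48.4) the lowest. Across the 80 members, the Spearman correlation between exon length and log2 change was 0.34 in KO and 0.33 in WT organoids, with larger falls at shorter exon length. Across the 13208 coding genes tested it was 0.12 in KO and 0.11 in WT organoids. The median exon length was 2014 bases in the Sm core ring and 5897 in the hnRNP group. These are descriptions across genes, which share the same libraries and are not replicates. The correlation with mean level was 0.11 in KO and 0.08 in WT organoids.

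Promoter sequences of RefSeq (assembly GRCm38.p6, 250 bases before to 50 after a transcript start) were found for 68 of the 80 members, in 91 windows. Motifs were searched on both strands. CCAAT occurred in 47.3% of member windows and 37.7% of the windows of coding genes tested, CCGGAAG (the core bound by ETS factors) in 28.6% and 16.7%, CACGTG (the E-box) in 12.1% and 9.57%, TATAAA in 7.69% and 7.36%, and GCGTG, the core bound by AhR with its partner Arnt, in 64.8% and 49.6%. Some members have several windows, and windows of the same gene can overlap. Counted once per gene, GCGTG occurred for 66.2% of members and 55.5% of coding genes tested. The shares were 51.5% and 43.1% for CCAAT and 30.9% and 19.6% for CCGGAAG. They were 13.2% and 11.5% for CACGTG and 10.3% and 8.95% for TATAAA. None of these motifs contains another, though neighbouring matches can share end letters. Below are the 150 bases before the start of the member with the largest fall in the U6 ring (Lsm5) and in the hnRNP group (Hnrnpa1) and of the SR gene that rose (Srsf5), each written 5′ to 3′ on the strand of the gene, with matches on either strand to the motifs just named, GCGTG excepted, in capitals. The stretch of Lsm5 lies at chr6:56704700-56704849 (minus strand), that of Hnrnpa1 at chr15:103240247-103240396 (plus strand) and that of Srsf5 at chr12:80945349-80945498 (plus strand).
Lsm5: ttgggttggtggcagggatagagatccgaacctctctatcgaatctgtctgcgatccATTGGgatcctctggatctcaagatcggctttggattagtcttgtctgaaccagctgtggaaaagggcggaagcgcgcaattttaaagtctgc
Hnrnpa1: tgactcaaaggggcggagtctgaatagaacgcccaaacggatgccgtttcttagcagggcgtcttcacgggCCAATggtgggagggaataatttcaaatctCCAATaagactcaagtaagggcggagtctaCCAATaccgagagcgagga
Srsf5: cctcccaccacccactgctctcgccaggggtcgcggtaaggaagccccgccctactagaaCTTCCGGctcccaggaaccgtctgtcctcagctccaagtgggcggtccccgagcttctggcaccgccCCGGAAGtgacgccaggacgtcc
Within these stretches Lsm5 had 1 and Hnrnpa1 3 matches to CCAAT, and Srsf5 had 2 matches to CCGGAAG and none to CCAAT. A match is a run of letters and says nothing of whether a factor binds there.

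The size of the change differed between the genotypes for 12 members. The difference of the log2 changes (KO response minus WT response, the interaction of genotype and condition) was above 0 for 74 of 80 members, or 92.5%, and for 54.3% of all genes, with a median of 0.29 over members and 0.04 over all genes. It was called above 0 for 11 members, where 5.12% of all genes were, and below 0 for 1 member, where 3.58% were. Its unadjusted limma p was under 0.05 for 40 of 80 members and for 4037 of 14856 genes tested. Of the 72 members with a negative change in WT, 69 had a change nearer to 0 or above it in KO organoids. No such count was made over all genes, and choosing members by their WT change in itself favours this outcome. The called differences were Snrpg 0.68, Snrpf 0.55, Lsm3 0.53, Snrpd1 0.51, Hnrnpa1 0.49, Hnrnpa0 0.49, Hnrnpab 0.46, Snrpd2 0.39, Lsm4 0.36, Srsf11 0.32, Hnrnpa3 0.28 and, in the other direction, Snrpn -0.74 on the log2 scale. Calls were made in the Sm ring (5 of 8 members), the U6 ring (2 of 7), the hnRNP group (4 of 20) and the SR group (1 of 10). The estimates did not part the groups in this way. Median differences were 0.39 in the U6 ring, 0.35 in the Sm ring, 0.33 in the SR group and 0.23 in the hnRNP group. Without a call, they were 0.34 in the U2, 0.29 in the U1 and 0.21 in the U4/U6 and U5 group. For the other Prpf genes and the Lsm genes outside the ring they were 0.13 and 0.09. Lsm2 had the highest estimate of any member (0.74) but was not called.

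The median difference of the members was 0.18 without WT stem library 1, the library with fibroblast transcripts, in place of 0.29. The count called above 0 was 18 without WT stem library 1, 17 without WT stem library 3, 3 without WT differentiated library 3, 5 without WT differentiated library 1, 4 without KO stem library 1 or 2, 6 without KO stem library 3, 6 without KO differentiated library 1 or 3 and 5 without KO differentiated library 2. Snrpf, Snrpg and Hnrnpa1 kept their call in all 23 alternative settings. With the replicate number as a block within genotype the count was 13, and Lsm3, Hnrnpa3 and Hnrnpab lost their call. The call of Snrpn was lost in 6 of the 23 settings, with adjusted p up to 0.0861, among them without KO stem library 1 or 2, WT stem library 2 or WT differentiated library 1 or 3. Without KO differentiated library 1 its difference was -0.56.

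**Figure D3:**
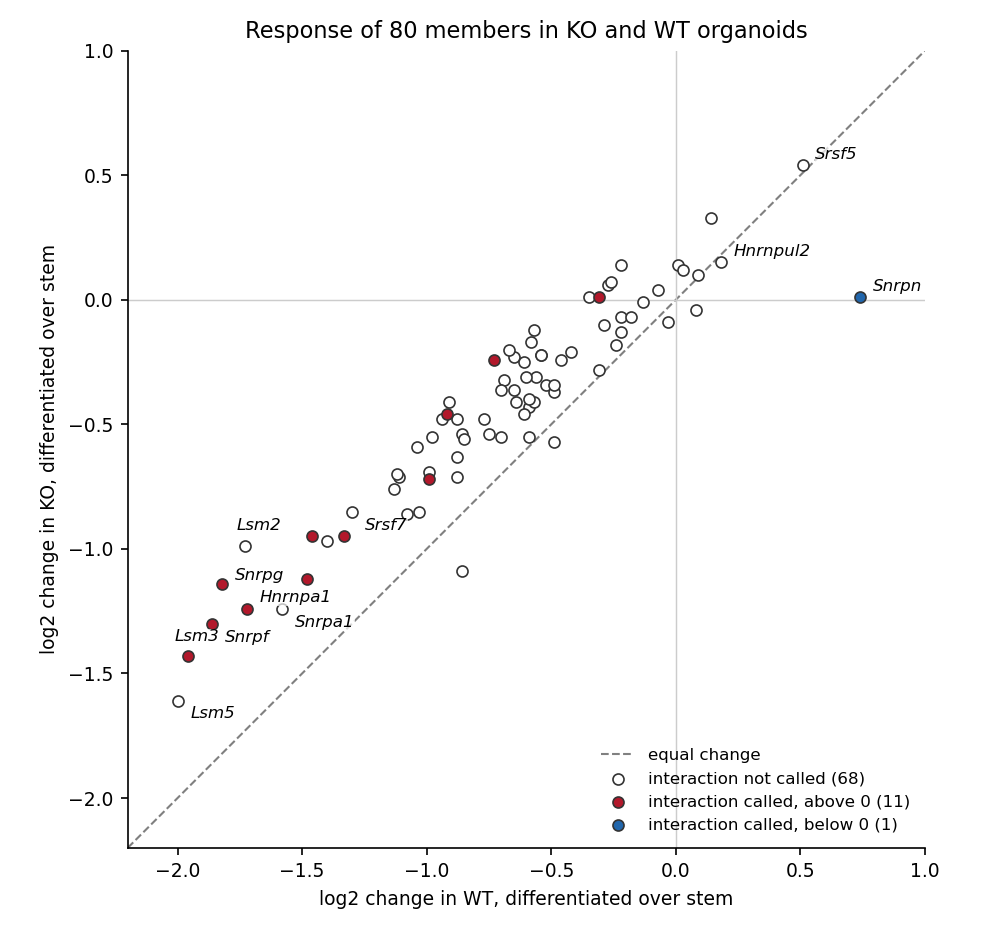
Log2 change from stem to differentiated condition in KO organoids (y axis) against that in WT organoids (x axis) for the 80 members, with the dashed line for equal change and filled points for members whose difference was called. Of the 80 members 74 lie above the line, where the difference was above 0 for 54.3% of all genes. Snrpg is among them (-1.14 in KO, -1.82 in WT), Srsf5 lies close to the line and Snrpn lies below it (0.01 in KO, 0.74 in WT).

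Compared within the differentiated condition, some splicing transcripts were higher and others lower in KO than in WT organoids. Of the 80 members 9 were called up and 4 down, where 13.8% of all genes were called up and 13.9% down, and the median log2 change was 0.11 against 0.02 over all genes. In this fit both shares of the members are below those of all genes, which did not hold for calls up in every alternative. In all 3 KO libraries 40 members were higher than in all 3 WT libraries, where 26.8% of all genes were, and 7 were lower, where 26.4% were. Hnrnpa1 differed by 0.40 ± 0.07 (limma adjusted p = 0.00223), Snrpf by 0.37 ± 0.07 (limma adjusted p = 0.00284) and Snrpg by 0.38 ± 0.08 (limma adjusted p = 0.00792), and the library values given above do not overlap for any of these 3. Lsm2, Sf3b5, Prpf19, Hnrnpa0, Snrpd2 and Snrpa were called with log2 changes of 0.26 to 0.44. Snrpn was lower in KO (-0.62 ± 0.13, limma adjusted p = 0.00549), with KO differentiated library 1 the lowest of the 3, and changed by -0.44 without that library.

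Prpf38a, a tri-snRNP factor needed to activate the spliceosome, had 1665, 1698 and 1751 normalized counts in KO differentiated and 2187, 2155 and 2090 in WT differentiated organoids. In the stem condition it had 1773, 1816 and 1853 in KO and 2460, 2161 and 1978 in WT organoids. All KO libraries lay below all WT libraries, and it was the 1 member called between genotypes in both conditions, by -0.33 ± 0.07 (limma adjusted p = 0.008) in the differentiated and -0.27 ± 0.07 (limma adjusted p = 0.0488) in the stem cell condition. The call in the stem cell condition was lost in 10 of 17 alternative settings, with adjusted p up to 0.173, among them without WT stem library 1 or 2 or any KO stem library, while that in the differentiated condition held in all 18.

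The counts in the differentiated condition changed with the libraries and the method used. Without WT stem library 1, which is in neither group, 27 members were called up and 5 down, where 2883 and 2816 of 14856 genes were. The members' share called up was then above that of all genes. The counts of members were 4 and 2 without KO differentiated library 1, 5 and 3 without KO differentiated library 2, and 7 and 3 without KO differentiated library 3. They were 4 and 2 without WT differentiated library 1, 5 and 2 without WT differentiated library 2, and 3 and 2 without WT differentiated library 3. Quantile normalization gave 18 members up and 2 down, where 1983 and 1667 of all genes were. On the recovered reads edgeR gave 14 members up and 3 down, where 2301 and 1791 of all genes were. In both of these settings the members' share called up was also above that of all genes. Hnrnpa1, Snrpf, Snrpg, Snrpn and Prpf38a kept their calls in all 18 settings, whereas Lsm2, Prpf19, Sf3b5, Snrpa, Hnrnpul2 and Lsm12 lost theirs in 6 to 10 of them, Snrpd2 in 3 and Hnrnpa0 in 2. Of the stem and cycling markers, 4 of 5 were higher in KO differentiated organoids, with sums of 6536 to 7371 in KO and 4126 to 4275 in WT libraries, and their part in these differences was not tested. All 5 colonocyte markers were lower in KO, with sums of 13166 to 37919 in KO and 83885 to 133173 in WT libraries.

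**Figure D4:**
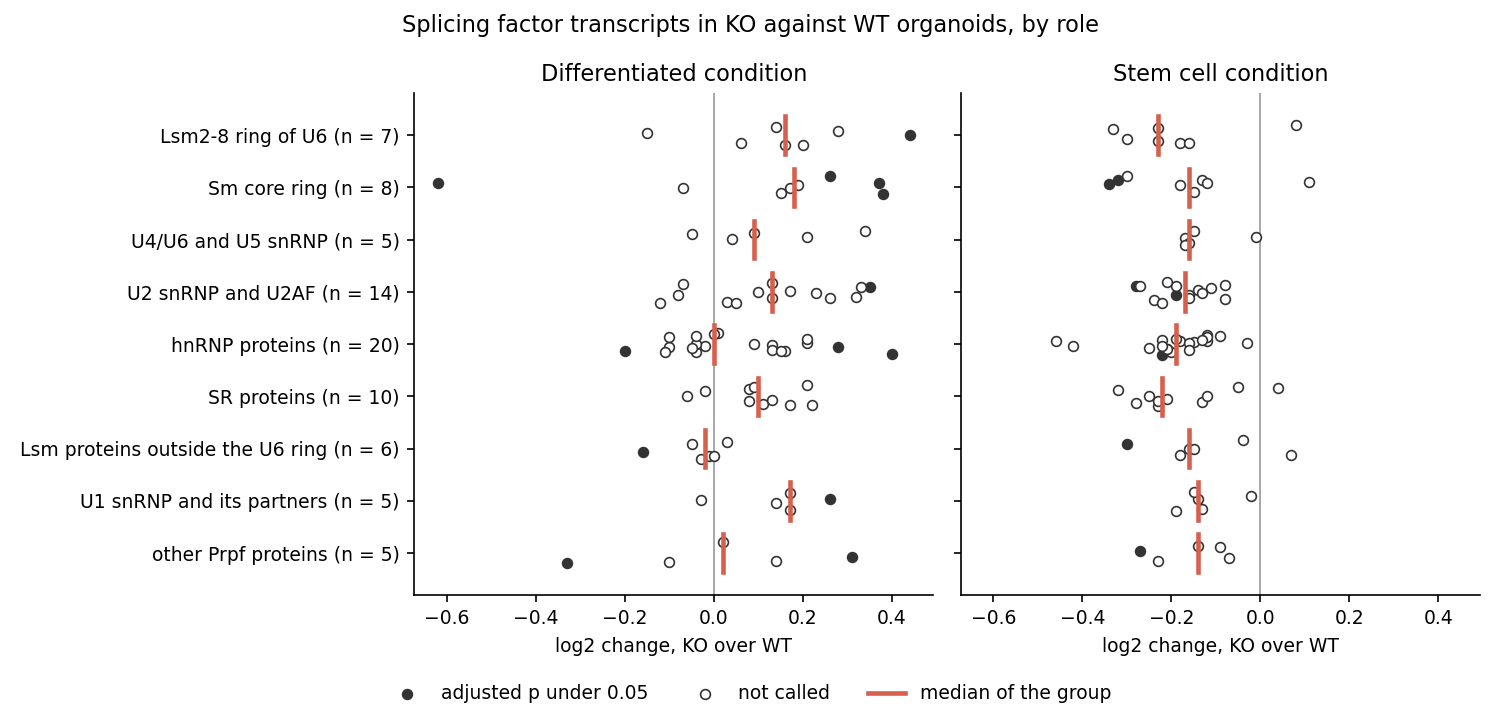
Log2 change of KO over WT organoids (x axis) for the 80 members by role (y axis), in the differentiated and the stem cell condition, with filled points for an adjusted p under 0.05 and red lines for medians. Points lie to both sides of 0 in the differentiated condition (53 of 80 above it) and nearly all lie below 0 in the stem cell condition (76 of 80).

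In the stem cell condition the differences were small and ran downwards. The log2 change was below 0 for 76 of 80 members, and for 57.1% of all genes, with a median of -0.17 over members and -0.04 over all genes. No member was called up, where 3.48% of all genes were, and 7 were called down, where 3.09% were. An unadjusted limma p under 0.05 was found for 41 of 80 members and for 3658 of 14856 genes tested. In all 3 KO libraries 44 members were lower than in all 3 WT libraries, where 17.9% of all genes were, and 1 was higher, where 11.6% were. The called members were Snrpd1 (-0.34 ± 0.08), Snrpe (-0.32 ± 0.06), Lsm11 (-0.30 ± 0.08), Snrpa1 (-0.28 ± 0.07), Prpf38a (-0.27 ± 0.07), Hnrnpul1 (-0.22 ± 0.06) and Sf3b1 (-0.19 ± 0.04). Cell type markers differed between the same libraries: 2 of 5 colonocyte markers were called down, with sums of 57.6 to 89.6 in KO and 343.5 to 568 in WT stem libraries, as were 2 of 3 goblet cell markers (41.5 to 127 in KO and 113 to 140.2 in WT) and 1 of 5 stem and cycling markers (29086 to 41295 in KO and 38232 to 46376 in WT). Their part in these differences was not tested.

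Snrpe, the gene of SmE, had 3679, 3972 and 3940 normalized counts in KO stem and 4961, 4671 and 4796 in WT stem organoids, with no overlap, and its call (limma adjusted p = 0.0123) was lost in 2 of 17 alternative settings, with adjusted p up to 0.062: without KO stem library 1 and with only the stem libraries in the fit. The other 6 calls were lost in 5 to 10 settings. The count called down was 0 without KO stem library 1, 2 without KO stem library 2, 4 without KO stem library 3, 1 without WT stem library 2, 15 without WT stem library 3, and 7 without WT stem library 1, of which 4 were among the 7 named. DESeq2 called 29 members down and edgeR 2, on the recovered reads, where 1144 and 308 of all genes were called down. With only the 6 stem libraries in the limma fit the count was 0.

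WT stem library 1 lay above both other WT stem libraries for 65 of 80 members, where it did so for 46.5% of all genes. It was the highest of all 12 libraries for 61 members, for which no share over all genes was taken. Its median member level was 0.21 higher on the log2 scale than the mean of the other WT stem libraries. Without it, the median log2 change of the members was -0.11 for KO against WT in the stem cell condition in place of -0.17, and -0.52 for differentiated against stem in WT organoids in place of -0.63. Of the WT members, 66 were called down with it and 66 without it.

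**Figure D5:**
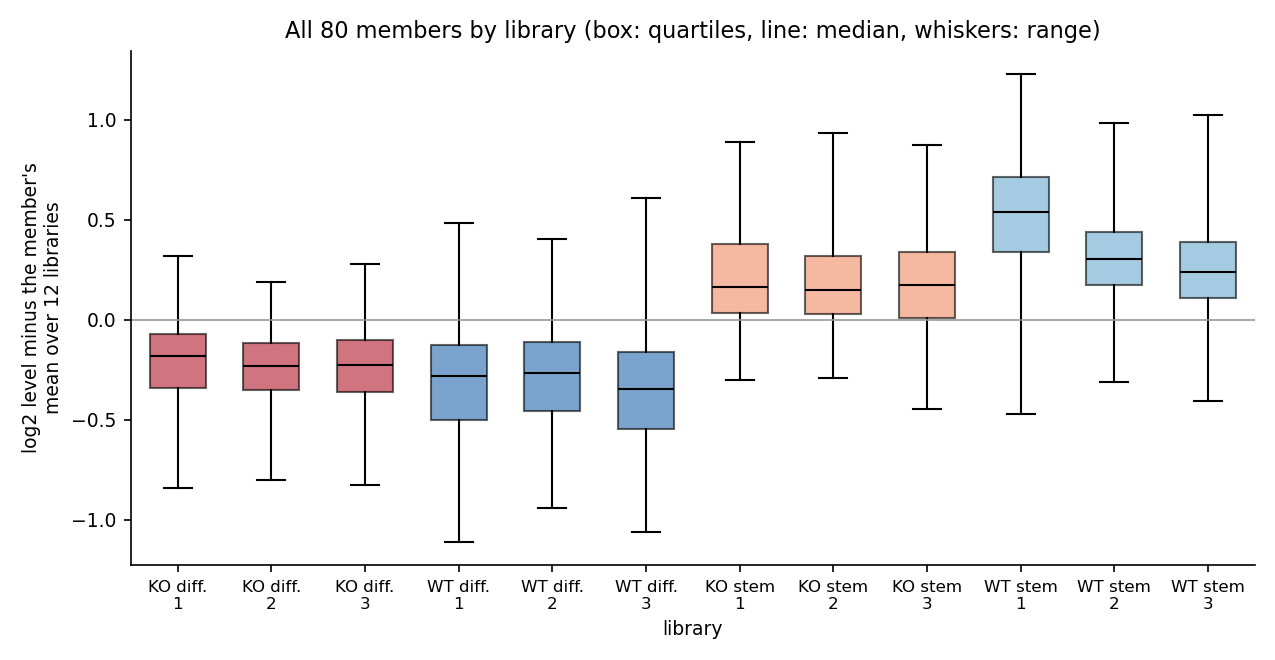
Log2 level of each of the 80 members minus that member's mean over all 12 libraries (y axis) by library (x axis), with boxes for quartiles, lines for medians and whiskers for the range. The 6 differentiated libraries have medians below 0 and the 6 stem libraries medians above 0, with WT stem library 1 the highest.

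Other genes of the same pathway moved alike in part. The 7 Snrnp genes, which encode further snRNP proteins, had 5 falls and 1 rise in KO and 6 falls in WT organoids, where 33.6% of all genes fell in KO and 35.9% in WT organoids. Snrnp70, the U1 protein that binds the first stem-loop of U1 RNA, had 6104, 5532 and 5947 normalized counts in KO differentiated and 8931, 8121 and 8307 in KO stem organoids, and 5261, 5346 and 4967 in WT differentiated and 10138, 8659 and 8289 in WT stem organoids. Differentiated and stem libraries did not overlap, and the log2 change was -0.53 ± 0.08 in KO and -0.79 ± 0.08 in WT organoids. The Prp19 complex and partners of the tri-snRNP (41 genes) had 21 falls and 4 rises in KO and 29 falls and 5 rises in WT organoids. Ppih, a cyclophilin of the U4/U6 particle, changed by -1.23 ± 0.12 in KO and -1.60 ± 0.12 in WT organoids, and Usp39, needed for tri-snRNP joining, by -0.77 ± 0.09 in KO and -1.28 ± 0.09 in WT organoids.

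The SMN complex loads Sm rings onto snRNAs in the cytoplasm after Prmt5 and its partners have methylated Sm proteins. Of its 15 listed genes 12 fell in KO (median -0.67) and 13 in WT organoids (median -1.04), and none rose. Among all genes 33.6% fell and 34.1% rose in KO, and 35.9% fell and 36.3% rose in WT organoids. Gemin6, an SMN subunit with an Sm-like fold, had 245, 231 and 227 normalized counts in KO differentiated against 802, 781 and 809 in KO stem libraries, and 156, 173 and 159 in WT differentiated against 1203, 779 and 814 in WT stem libraries. All differentiated libraries lay far below all stem libraries, and the WT differentiated libraries were the lowest. Its log2 change was -1.76 ± 0.14 in KO and -2.48 ± 0.14 in WT organoids, and it was higher in KO than in WT differentiated organoids by 0.52 ± 0.14 (limma adjusted p = 0.0197). Prmt5 itself changed by -0.91 ± 0.11 in KO and -1.42 ± 0.11 in WT organoids. In the differentiated condition 6 of the 15 genes were called up in KO against WT and none down, where 13.8% of all genes were called up and 13.9% down.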

How the data were processed

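Members and gene lists were chosen with earlier results of these data known. The deposited table holds normalized counts (unit: signal), which the authors obtained by dividing gene counts by size factors, and per the submitters' processing notes used GRCm38, Bowtie2, RSEM 1.2.11 and DESeq2 1.18.1. Strand use and isoforms are not given in the sources used here, 35 members overlap another annotated gene, and copies such as processed pseudogenes could share reads. Within a tolerance of 0.05 of a read, 100.0% of values were whole multiples of 1 step per library, so reads were recovered (25.1 M to 99.0 M per library, whose number sets the counting error). Symbols and exon lengths came from GENCODE vM21, which matched 99.1% of identifiers, and promoters from RefSeq. Exon length counts every base in any annotated exon of a gene, so it can exceed the length of each transcript.

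Groups came from the sample titles. Genes with at least 10 in at least 3 of 12 libraries were tested as log2(normalized count + 1) with limma 3.58.1 in R 4.3.3 (4 group means, mean-variance trend, two-sided, Benjamini-Hochberg adjusted p under 0.05), after a test on simulated data. On the recovered reads edgeR called 4850 genes up and 5270 down between differentiated and stem KO organoids, and 5195 up and 5458 down in WT organoids. No test was made over the list of members.

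Genes were named by rule: up to 6 largest rises and falls a contrast among called members with a mean of at least 50 in a group (3 for the interaction), the most abundant member of each role per kb, a fixed panel, and up to 3 genes a list of other splicing genes in differentiation and 2 between genotypes. Other members were named after their values were seen. Alternatives were pseudocounts of 0.5 and 5, no filter, a mean of at least 50, recomputed size factors, quantile normalization, only the groups compared, the replicate number as a block, edgeR 4.0.16 and DESeq2 1.42.0 on recovered reads, and leaving out each library. Leaving out both libraries with fibroblast transcripts, or WT stem library 1 from comparisons without it, was chosen after seeing the data. Stem and differentiated residuals of libraries with the same number correlated by 0.286, 0.191 and 0.256 in KO and by 0.107, 0.055 and 0.145 in WT organoids. KO differentiated library 1 and WT stem library 1, which differ in genotype and condition, correlated by 0.201. The titles do not state whether equal numbers mean paired libraries.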

Additional observations from a re-analysis of the deposited data

Results flagged for a closer look

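The change after Wnt-3A withdrawal differed between KO and WT organoids for 12 members, by the interaction term of the limma fit at an adjusted p under 0.05. In each case the value is the log2 change in KO minus that in WT organoids. In the Sm core ring these were Snrpg (0.68), Snrpf (0.55), Snrpd1 (0.51), Snrpd2 (0.39) and Snrpn (-0.74). In the U6 ring they were Lsm3 (0.53) and Lsm4 (0.36). Among hnRNP and SR genes they were Hnrnpa0 (0.49), Hnrnpa1 (0.49), Hnrnpab (0.46), Hnrnpa3 (0.28) and Srsf11 (0.32). Snrpg, Snrpf and Hnrnpa1 kept their call in all 23 alternative settings and Hnrnpa0 in all but 1. The call was lost in 13 of them for Snrpd2, 12 for Lsm3, 11 for Srsf11, 11 for Hnrnpa3, 10 for Lsm4, 10 for Hnrnpab, 6 for Snrpn and 5 for Snrpd1, with adjusted p up to 0.104 among these 8. All of the 12 but Snrpn and Srsf11 fell in both genotypes and fell less in KO. Srsf11 changed by 0.01 ± 0.06 in KO and -0.31 ± 0.06 in WT organoids, and Snrpn by 0.01 ± 0.13 in KO and 0.74 ± 0.13 in WT organoids. Without KO differentiated library 1, Snrpn changed by 0.19 in KO organoids and its difference was -0.56.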

How the results depend on the processing

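No member was called in the opposite direction in any alternative. After differentiation 52 to 59 members in KO and 65 to 69 in WT organoids were called down over all alternatives. The 2 rises in KO were 1 with no filter or edgeR, 4 with the replicate block, DESeq2 or without both libraries with fibroblast transcripts, and 1 to 5 leaving out each library (5 without WT stem library 1). The WT median of -0.63 was -0.52 without both libraries and -0.70 to -0.52 leaving out each. For KO against WT in the stem cell condition, 7 calls down became 2 with no filter or edgeR, 3 with quantile normalization, 0 with only the groups compared, 12 with the replicate block, 29 with DESeq2 and 0 to 15 leaving out each library, and the median of -0.17 was -0.10 without both libraries. In the differentiated condition, 9 calls up became 5 with no filter, 18 with quantile normalization, 21 with only the groups compared, 16 with the replicate block, 14 with edgeR, 26 without both libraries and 3 to 27 leaving out each, and 4 calls down became 2 with no filter or quantile normalization and 2 to 5 leaving out each. Among all 14856 genes, calls up in that condition were 2139 with only the groups compared, 2532 with the replicate block and 2759 without both libraries. For the interaction, 11 calls above 0 became 5 with no filter, 25 with the replicate block, 28 with DESeq2 and 3 to 18 leaving out each, the 1 below 0 was 0 without both libraries and 0 to 1 leaving out each, and the median of 0.29 was 0.18 without both libraries and 0.18 to 0.34 leaving out each. The cause of these shifts was not tested. The replicate number as a block within genotype gave 54 members down in KO and 13 above 0 for the interaction. It lost no other call than those of Prpf18 in KO and Lsm3, Hnrnpa3 and Hnrnpab for the interaction.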

Other observations

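Regulators outside the named families included both falls and rises after differentiation. Of 46 further SR-like and alternative splicing regulators, 21 fell and 10 rose in KO, and 27 fell and 7 rose in WT organoids, where 33.6% of all genes fell and 34.1% rose in KO and 35.9% fell and 36.3% rose in WT organoids. Khdrbs3, an RNA-binding protein of the Sam68 family, had 52.6, 51.3 and 69.5 normalized counts in KO differentiated and 323, 389 and 435 in KO stem organoids, and 82.4, 94.4 and 56.8 in WT differentiated and 507, 467 and 362 in WT stem organoids. Conditions did not overlap, and its log2 changes of -2.71 ± 0.21 in KO and -2.52 ± 0.21 in WT organoids exceeded those of every family member. Ptbp2, the neuronal relative of the polypyrimidine tract binding protein, had 331, 258 and 287 normalized counts in KO differentiated and 124, 147 and 135 in KO stem organoids, and rose by 1.10 ± 0.14 in KO and 0.53 ± 0.14 in WT organoids. Celf2 was higher in KO than in WT differentiated organoids by 1.06 ± 0.20 (limma adjusted p = 0.00434), with 916, 624 and 573 normalized counts in KO and 294, 362 and 341 in WT libraries, and Qk by 0.72 ± 0.20 (limma adjusted p = 0.0236).

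Of 7 kinases that phosphorylate SR proteins, 2 rose in KO and 1 in WT organoids and none fell, and both counts of rises are below the share of all genes that rose. Srpk2 had 3035, 2826 and 2629 normalized counts in KO differentiated against 2033, 2290 and 2052 in KO stem libraries, and 3093, 2735 and 2594 in WT differentiated against 1896, 2005 and 2142 in WT stem libraries. It rose without overlap by 0.41 ± 0.08 in KO and 0.48 ± 0.08 in WT organoids. Of 9 spliceosomal helicases, 3 fell and 4 rose in KO, and 5 fell and 2 rose in WT organoids, and the KO counts are near the shares of all genes. Dhx15, which takes spent spliceosomes apart, changed by -0.67 ± 0.09 in KO and -0.90 ± 0.09 in WT organoids, and Ddx39b, the U2AF-associated helicase, by -0.03 ± 0.11 in KO and -0.55 ± 0.11 in WT organoids.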
